A study of Mus musculus with 30 samples.

Results

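Expression was examined for 34 genes of the synaptic vesicle and of exocytosis in cultured neurons of the mouse embryonic telencephalon, with and without the transcription factor Xbp1 and with and without the neurotrophin BDNF. The genes form a list of names put together by what they do at the synapse. It was chosen with earlier results of these data known. Its counts beside those of all genes describe the list and are not independent support. Of the 34 listed genes, 32 had a probe set that names a single gene. Sv2b and Synj1 had none and were not analysed here. Of the 32 measured genes, 29 passed a filter on low signal and were tested, out of 7436 tested genes in all. Vamp1, Rph3a and Homer1 lay under the filter and are given by level.

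A presynaptic terminal stores transmitter in vesicles, and calcium entry makes them fuse with the membrane. Fusion is driven by the SNARE proteins, with Snap25 and Stx1a (syntaxin 1A) on the plasma membrane and Vamp1 and Vamp2 (synaptobrevins) on the vesicle. Synaptotagmins sense calcium, complexins bind the assembled SNARE bundle, and Nsf with its adaptors Napa and Napb takes the bundle apart again. Dynamin, amphiphysin, endophilin and the clathrin adaptor AP180 then retrieve the membrane. BDNF acts through the receptor TrkB and is known to promote the maturation of synapses, and Xbp1 is activated in the unfolded protein response, where it turns on genes of protein folding and secretion.

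The 30 arrays fall into 6 groups of 5 dishes. Xbp1 -/- (KO) cultures were left without BDNF (basal), exposed to BDNF for 24 h or exposed to it for 48 h, and Xbp1 +/+ (WT) cultures were handled in the same way. Cells came from embryos at day 12.5, with 6 embryos pooled for the KO and 4 for the WT, and each pool was divided over 15 dishes in a serum-free medium. BDNF was used at 100 ng/ml and was added on day 3 in vitro. Basal and 24 h dishes were lysed on day 4, and 48 h dishes on day 5, so the effect of 48 h of BDNF and that of 1 more day in culture cannot be told apart. The replicates are dishes of 1 pool per genotype, so the p-values measure the spread between dishes and not between embryos. RNA was amplified over 2 rounds before labelling.

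Values are log2 of the signal after division by the array's median, so that 0 is the median probe set and 1 unit is a 2-fold step. The median signal before this scaling lay between 81.9 and 138 intensity units per array. The Gapdh 3'/5' signal ratio, which tracks RNA quality and labelling, was 2.39 ± 0.213 in KO dishes and 2.47 ± 0.0913 in WT dishes at 48 h, against 2.73 ± 0.102 and 2.86 ± 0.0992 at basal (SD, n = 5). In both genotypes the 48 h dishes with replicate numbers 1 and 2 stood apart from numbers 3 to 5 on a component holding 10.9% of the variation within groups. On the component holding the most, 15.7%, replicate 1 was below 0 in all 6 groups and the lowest of its 5 dishes in 5 of them. The brightest probe set of Xbp1 lay between 4.53 and 4.70 in KO basal dishes, against 4.37 to 4.47 in WT basal dishes. Which part of the gene was removed is not given in the sources used here, so this probe set does not check the genotype. Of 21 neuronal genes outside the synapse, 20 passed the filter, as did 14 of 15 progenitor genes. Of 7 measured astrocyte genes 3 passed, as did 3 of 8 measured oligodendrocyte genes. The astrocyte genes Gja1 and Aldoc had mean log2 signals of 5.05 and 3.17, and Gfap had one of -1.28. Among the oligodendrocyte genes, Cnp had a mean of 1.37, and Mog was at the floor in 29 of 30 arrays.

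Many of the vesicle genes were higher after 48 h of BDNF, and few had moved at 24 h. In KO cultures 13 of 29 tested members were higher at 48 h than at basal, while 19.4% of all tested genes were. In WT cultures 16 of 29 were higher, while 20.5% of all tested genes were. None passed the test as lower in limma in either genotype, and 16 members in KO and 19 in WT had an unadjusted p under 0.05 in either direction. The shares of all tested genes at that unadjusted threshold are not given here, so these counts describe the members alone. The median log2 difference over the 29 members was 0.21 in KO and 0.27 in WT, beside 0.045 and 0.023 over all tested genes. Since the list was chosen with earlier results of these data known, these values describe it and do not test it. In a bulk sample, more RNA per cell and more cells of a type cannot be told apart.

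At 24 h, 3 members were higher in KO (Syt4, Syp and Syngr3), where 5.96% of all tested genes were higher. In WT 4 members were higher (Snap25, Syt4, Syp and Homer2), where the share was 8.04%, and Dnm1 was lower, where the share was 6.4%. Between 24 h and 48 h, 9 members were higher at 48 h in KO, where 7.49% of all genes were, and 12 in WT, where 8.32% were. Of these, 7 passed in both genotypes (Cadps, Cplx1, Dnm1, Napb, Snap25, Syngr1 and Syp), and the share of all tested genes that did is not given here. With the Gapdh ratio in the model, none of the 9 passed in KO in limma and 5 members did in WT, beside 0.524% and 1.68% of all tested genes that were higher. The median difference over the members was 0.1353 in KO and 0.1838 in WT with the ratio, and 0.1287 and 0.1815 without it. The ratio itself differed between these times, with means of 2.8 in KO and 2.83 in WT at 24 h and 2.39 and 2.47 at 48 h. The comparisons between times share groups with one another and are not independent.

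At 48 h, 12 members were higher in both genotypes: Cadps, Homer2, Napb, Snap25, Snap91, Sv2a, Syn1, Syn2, Syngr1, Syngr3, Syp and Syt4. The share of all tested genes that were higher in both is not given here. Cplx1 passed in KO, with WT at an adjusted p of 0.0661. Bin1, Nsf, Syt1 and Vamp2 passed in WT but not in KO. No member passed the limma test of a KO minus WT difference in the 48 h response itself. Of all tested genes, 0.134% did in either direction. In limma 2 members had an unadjusted p under 0.05, and the share of all tested genes under it is not given here. The 48 h groups include the dishes that stood apart: with replicates 1 and 2 as the 48 h dishes, 7 members were higher in KO and 7 in WT, and with replicates 3 to 5, 17 were higher in KO and 18 in WT. The share of all tested genes that were higher moved too, to 9.2% in KO and 5.82% in WT with replicates 1 and 2, and to 20.5% and 25.9% with replicates 3 to 5.

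**Figure D1:**
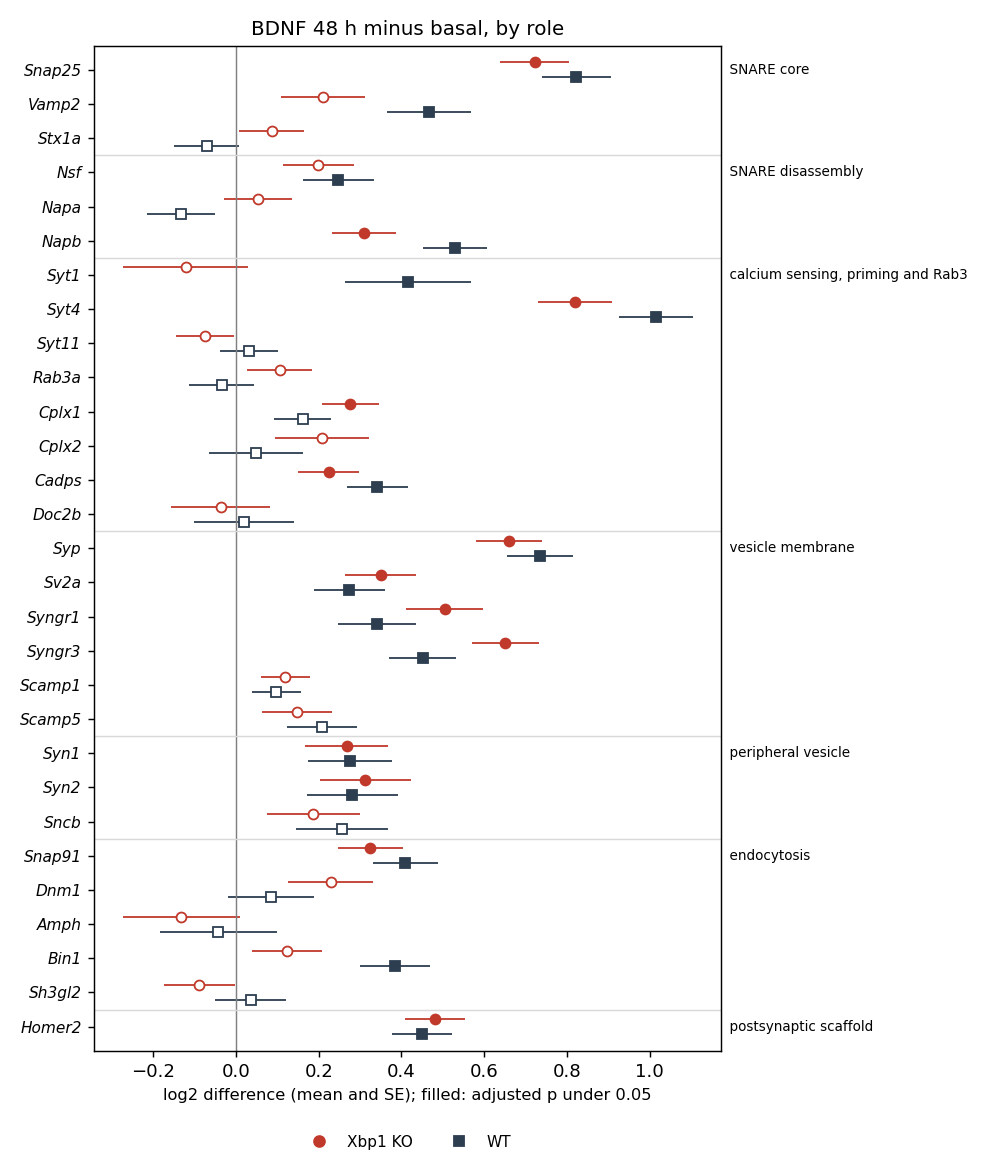
Log2 difference between 48 h of BDNF and basal for each of the 29 tested members, ordered by role, as mean with SE (n = 5 dishes per group). Red circles are KO and dark squares are WT, and filled symbols passed an adjusted p of 0.05. Syt4, Snap25 and Syp lie farthest to the right in WT, at 1.01, 0.82 and 0.73.

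Promoter sequences are shown for 4 members that differed by BDNF or by genotype and whose promoter carries a motif tied to neuronal activity. Each is a 200-base stretch from RefSeq (GRCm38.p6) of 170 bases before and 30 bases after the annotated start, in the direction of transcription, and the capitals mark the motif. Homer2 (chr7:81706896-81707095, minus strand), Cplx1 (chr5:108549998-108550197, minus strand) and Syngr1 (chr15:80091164-80091363, plus strand) hold the core bound by EGR factors, GCGNGGGCG on either strand. Syn1 (chrX:20920889-20921088, minus strand) holds the palindrome TGACGTCA, the cAMP response element.
Homer2: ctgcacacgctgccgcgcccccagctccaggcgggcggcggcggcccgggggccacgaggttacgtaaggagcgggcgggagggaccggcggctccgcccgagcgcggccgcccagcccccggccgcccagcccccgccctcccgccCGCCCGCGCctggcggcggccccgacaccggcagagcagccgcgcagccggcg
Cplx1: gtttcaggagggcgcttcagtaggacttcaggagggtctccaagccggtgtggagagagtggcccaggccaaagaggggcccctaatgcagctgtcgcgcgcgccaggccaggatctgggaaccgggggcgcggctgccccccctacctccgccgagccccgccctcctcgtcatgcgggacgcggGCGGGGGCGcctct
Syngr1: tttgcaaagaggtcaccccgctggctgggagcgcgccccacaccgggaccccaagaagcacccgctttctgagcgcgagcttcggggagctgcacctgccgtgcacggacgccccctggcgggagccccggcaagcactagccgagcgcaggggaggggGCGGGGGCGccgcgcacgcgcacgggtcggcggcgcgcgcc
Syn1: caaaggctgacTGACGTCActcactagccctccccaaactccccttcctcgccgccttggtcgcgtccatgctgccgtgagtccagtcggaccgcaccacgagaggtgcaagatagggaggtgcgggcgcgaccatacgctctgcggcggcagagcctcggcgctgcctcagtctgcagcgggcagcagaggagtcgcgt

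Of the 34 members, 28 had a RefSeq promoter window of 300 bases, from 250 bases before to 50 after the start, with 40 windows in all. The EGR core was found in 7 of the 40 windows, from 7 members (Cplx1, Homer2, Nsf, Sh3gl2, Syn2, Syngr1 and Synj1), and in 5.55% of all 32851 windows. The cAMP response element was found in 3 of the 40 windows, from 3 members (Napa, Sh3gl2 and Syn1), and in 1.79% of all windows. In Syn1 it lay at -159 to -152 from the start. Nsf, Sh3gl2 and Syn2 also differed by BDNF or by genotype, and their sequences are not shown. GGACAGCGC, the right part of the RE1 element bound by the repressor REST, was in no member's window and in 0.405% of all. Both strands were searched, and the letters of the EGR core and the cAMP response element cannot overlap. A match describes these letters and does not show that a factor was bound.

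Among the SNARE proteins, Snap25 was the member with the clearest step. In KO dishes its log2 signal was 4.27, 4.31, 4.50, 4.35 and 4.45 at basal, 4.37, 4.49, 4.61, 4.56 and 4.74 at 24 h, and 4.94, 4.99, 5.28, 4.98 and 5.30 at 48 h. In WT dishes it was 4.39, 4.56, 4.60, 4.58 and 4.41 at basal, 4.89, 4.79, 4.80, 4.72 and 4.74 at 24 h, and 5.12, 5.10, 5.49, 5.43 and 5.51 at 48 h. The 3 times did not overlap in WT, and in KO the 48 h dishes lay above all others. The 48 h difference was 0.72 ± 0.08 in KO (SE, adjusted p = 6.41e-08), a 1.65-fold level, and 0.82 ± 0.08 in WT (adjusted p = 3.02e-09), a 1.77-fold level.

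Vamp2, the vesicle SNARE, took different courses in the dishes of each genotype, but the difference in response did not pass the test. In KO dishes it measured 2.96, 2.82, 2.97, 2.87 and 2.75 at basal, 2.99, 2.83, 3.10, 3.00 and 3.07 at 24 h, and 2.99, 2.80, 3.29, 3.15 and 3.20 at 48 h. In WT dishes it measured 3.17, 3.14, 3.12, 2.94 and 3.22 at basal, 3.25, 2.61, 3.28, 3.27 and 3.31 at 24 h, and 3.39, 3.64, 3.66, 3.73 and 3.50 at 48 h. The WT dishes at 48 h lay above every other dish, and the KO dishes at 48 h overlapped with KO basal. The 48 h difference was 0.21 ± 0.10 in KO (adjusted p = 0.118) and 0.47 ± 0.10 in WT (adjusted p = 0.000561). The KO minus WT difference in that response was -0.26, with a 95% interval of -0.55 to 0.04 (adjusted p = 0.768). A second, dimmer probe set of Vamp2 was higher at 48 h in both genotypes, by 0.40 ± 0.14 in KO and 0.63 ± 0.14 in WT, with adjusted p over 11324 tested probe sets of 0.0264 and 0.000586. Stx1a, the syntaxin partner of Snap25, passed in neither genotype at 48 h, with group means of 3.78 in KO and 3.91 in WT at 48 h, against 3.69 and 3.99 at basal. Vamp1, which serves mainly in brain stem, spinal cord and muscle nerves, ranged from -2.01 to -0.45 over the 30 dishes and was not tested.

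The ATPase Nsf and its adaptors disassemble used SNARE bundles. Napb, the adaptor found mainly in brain, rose after 24 h in both genotypes. In KO dishes its log2 signal was 3.48, 3.27, 3.41, 3.29 and 3.46 at basal, 3.25, 3.35, 3.33, 3.37 and 3.64 at 24 h, and 3.61, 3.55, 3.83, 3.61 and 3.87 at 48 h. In WT dishes it was 3.24, 3.36, 3.43, 3.26 and 3.48 at basal, 3.64, 3.27, 3.43, 3.33 and 3.33 at 24 h, and 3.88, 3.83, 3.81, 4.03 and 3.88 at 48 h. The 48 h dishes lay above basal without overlap in both genotypes, and the 24 h dishes overlapped with basal. From 24 h to 48 h the difference was 0.31 ± 0.08 in KO (adjusted p = 0.0135) and 0.48 ± 0.08 in WT (adjusted p = 0.000173). The KO call was lost with the Gapdh ratio as a covariate, with 48 h replicates 1 and 2 alone, and without KO 48 h replicate 3 or 5, while the WT call was kept in all 24 alternatives. Of the 5 probe sets of Napb, the next brightest averaged 3.29, 3.04 and 3.55 in KO at basal, 24 h and 48 h. In WT its means were 3.53, 3.43 and 3.82. Its KO dishes at 24 h lay below KO basal without overlap. They also lay below WT at 24 h and 48 h without overlap, and overlapped with WT at basal. Nsf was higher at 48 h in WT, by 0.25 ± 0.09 (adjusted p = 0.0238), and had a difference of 0.20 ± 0.09 in KO that did not pass. A dimmer probe set of Nsf averaged 2.57, 2.97 and 2.87 in KO at basal, 24 h and 48 h. In WT its means were 2.71, 2.64 and 3.05, and its 48 h dishes overlapped with basal in both genotypes. Napa, the widely expressed adaptor, passed in no comparison.

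Syt4, a synaptotagmin of dense-core and other secretory vesicles that lacks a calcium-binding residue in its first C2 domain, had the largest rise of the list in both genotypes, and most of it was present at 24 h. In KO dishes it measured 3.01, 3.32, 3.40, 3.42 and 3.48 at basal, 3.98, 4.11, 4.10, 4.10 and 4.08 at 24 h, and 4.00, 4.09, 4.26, 4.06 and 4.32 at 48 h. The WT dishes gave 3.30, 3.33, 3.43, 3.29 and 3.31 at basal, 4.03, 4.09, 4.20, 3.92 and 3.85 at 24 h, and 4.02, 4.18, 4.56, 4.47 and 4.49 at 48 h. Every BDNF dish lay above every basal dish. The 24 h difference was 0.75 ± 0.09 in KO (adjusted p = 2.57e-07) and 0.69 ± 0.09 in WT (adjusted p = 1.18e-06). At 48 h it was 0.82 ± 0.09 in KO and 1.01 ± 0.09 in WT, a 1.77-fold and a 2.02-fold level. From 24 h to 48 h, Syt4 rose further in WT by 0.33 ± 0.09 (adjusted p = 0.0139). This call was lost with 48 h replicates 1 and 2 alone, where the step was 0.08 (adjusted p = 0.758), with the Gapdh ratio as a covariate, where it was 0.17 (adjusted p = 0.378), and without WT 48 h replicate 3, where it was 0.27 (adjusted p = 0.0638). The step in KO was 0.07 ± 0.09 and did not pass, and the difference between the steps was not tested.

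Syt1, the calcium sensor of fast release, was a dim probe set with a wide spread. In KO dishes it measured -0.05, 0.47, 0.63, 0.36 and 0.11 at basal, 0.61, 0.35, 0.39, -0.05 and 0.54 at 24 h, and 0.09, -0.22, 0.48, 0.02 and 0.54 at 48 h. The WT dishes gave 0.42, 0.50, -0.17, 0.52 and 0.10 at basal, 0.60, 0.39, 0.34, 0.73 and 0.73 at 24 h, and 0.83, 0.80, 0.50, 0.75 and 0.58 at 48 h. WT dishes at 48 h overlapped with WT basal at 0.50 to 0.52, and the 48 h rise in WT was 0.42 ± 0.15 (adjusted p = 0.0311). That call was kept in 11 of 23 alternatives. In KO the difference was -0.12 ± 0.15 (adjusted p = 0.575). The KO minus WT difference in response was -0.54, with a 95% interval of -0.98 to -0.10, and did not pass (adjusted p = 0.542). A dimmer probe set of Syt1 rose by 0.76 ± 0.18 in WT (adjusted p = 0.00153) and had a difference of 0.39 ± 0.18 in KO (adjusted p = 0.109).

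Cadps, a priming factor for dense-core vesicles, was higher at 48 h by 0.22 ± 0.07 in KO (adjusted p = 0.0206) and 0.34 ± 0.07 in WT (adjusted p = 0.000492). Cplx1, the complexin common in inhibitory neurons, was higher at 48 h in KO by 0.28 ± 0.07 (adjusted p = 0.00286), and its difference in WT, 0.16 ± 0.07, did not pass. Its next probe set was higher in both genotypes, by 0.46 ± 0.08 in KO and 0.34 ± 0.08 in WT, and its dimmest passed in neither. The complexin Cplx2, the vesicle GTPase Rab3a and the calcium sensor Doc2b passed in no BDNF comparison. The probe sets of Syt11, a synaptotagmin that does not bind calcium, disagreed in size: the brightest differed at 48 h by -0.07 ± 0.07 in KO and 0.03 ± 0.07 in WT, while the dimmest was higher by 0.58 ± 0.10 in KO and 0.54 ± 0.10 in WT. Rph3a (rabphilin, a Rab3 effector) was at the floor in every KO dish and at most -2.75 in any WT dish.

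Syp (synaptophysin), the most used marker of synaptic vesicles, rose in 2 steps in both genotypes. In KO dishes its log2 signal was 2.65, 2.36, 2.65, 2.62 and 2.35 at basal, 2.84, 3.00, 2.78, 2.84 and 2.87 at 24 h, and 3.11, 3.05, 3.24, 3.24 and 3.30 at 48 h. The WT dishes gave 2.59, 2.87, 2.74, 2.58 and 2.82 at basal, 3.12, 2.89, 3.02, 3.03 and 3.27 at 24 h, and 3.26, 3.41, 3.56, 3.55 and 3.49 at 48 h. The 3 times did not overlap in KO, and in WT the 24 h and 48 h dishes overlapped at 3.26 and 3.27. The 24 h difference was 0.34 ± 0.08 in KO (adjusted p = 0.00454) and 0.35 ± 0.08 in WT (adjusted p = 0.00279). At 48 h it was 0.66 ± 0.08 in KO and 0.73 ± 0.08 in WT. The second probe set of Syp lay under the filter, and with the mean of both probe sets the change from 24 h to 48 h was -0.10 in KO and -0.14 in WT and did not pass.

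The synaptogyrins are vesicle proteins related to synaptophysin. Syngr3 in KO dishes measured 2.78, 2.88, 2.90, 2.71 and 2.65 at basal, 3.02, 3.12, 3.08, 2.98 and 3.17 at 24 h, and 3.44, 3.45, 3.45, 3.30 and 3.52 at 48 h. Dishes of WT cultures gave 2.95, 3.04, 2.94, 2.95 and 3.00 at basal, 3.17, 2.99, 3.09, 3.28 and 3.47 at 24 h, and 3.17, 3.33, 3.53, 3.40 and 3.71 at 48 h. The KO dishes separated at each time, and in WT the 24 h dishes overlapped with both neighbours. The 48 h difference was 0.65 ± 0.08 in KO (adjusted p = 3.56e-07) and 0.45 ± 0.08 in WT (adjusted p = 6.76e-05), and the KO minus WT difference between them was 0.20 ± 0.12 (adjusted p = 0.787). Syngr1, whose promoter stretch is printed above, was higher by 0.50 ± 0.09 in KO and 0.34 ± 0.09 in WT, and Sv2a, a transporter-like vesicle protein and the binding site of levetiracetam, by 0.35 ± 0.09 and 0.27 ± 0.09. Of the secretory carrier membrane proteins, neither Scamp1 nor Scamp5 passed at 48 h. In all, 4 of the 6 tested vesicle membrane members were higher at 48 h in each genotype. Of all tested genes, 19.4% were higher in KO and 20.5% in WT.

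**Figure D2:**
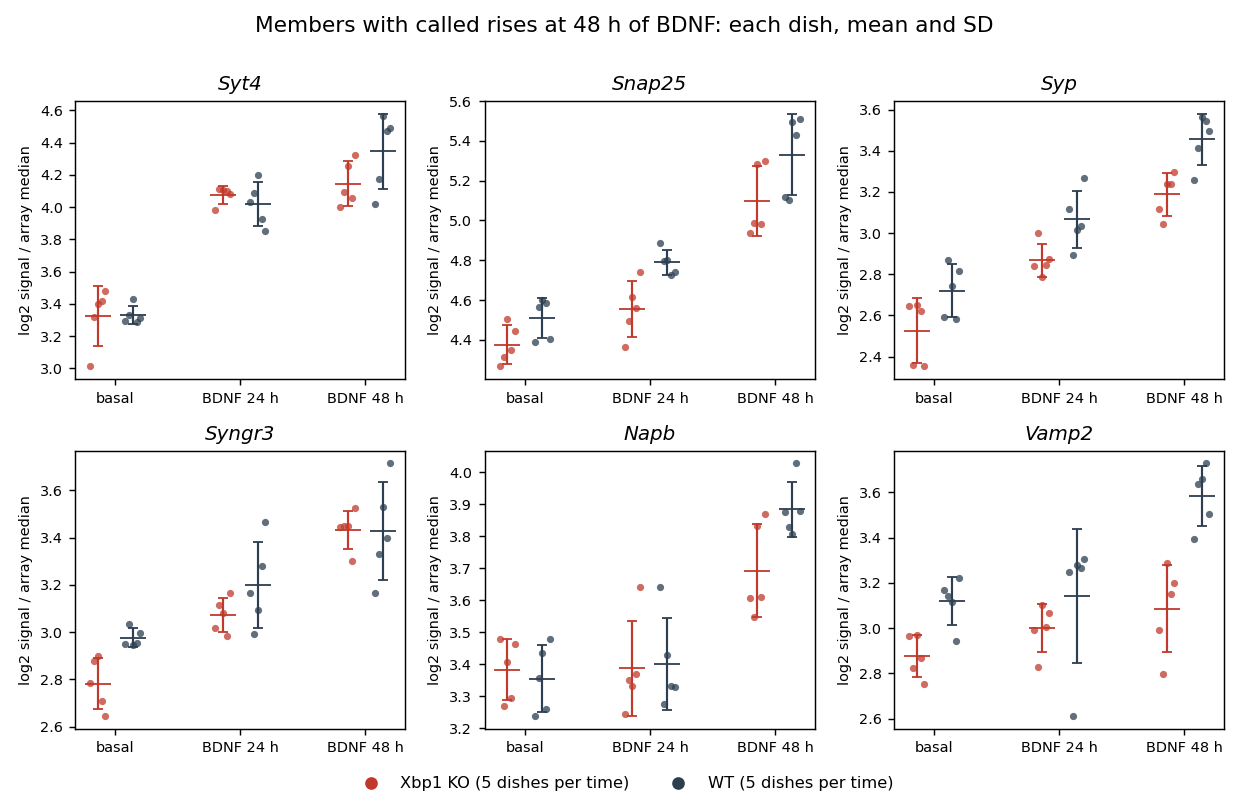
Log2 signal over the array median of 6 members in every dish, by time (red KO, dark WT, n = 5 dishes per group), with mean and SD as bars. Syt4 is high in every BDNF dish, Snap25 and Napb step up at 48 h, and Vamp2 at 48 h lies between 3.39 and 3.73 in WT and between 2.80 and 3.29 in KO, where its rise did not pass the test.

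The synapsins Syn1 and Syn2 coat vesicles and tether the reserve pool. Syn1 averaged 2.38 ± 0.19 in KO and 2.63 ± 0.15 in WT at 48 h, against 2.11 ± 0.13 and 2.35 ± 0.10 at basal (SD, n = 5), with differences of 0.27 ± 0.10 in KO (SE, adjusted p = 0.0443) and 0.28 ± 0.10 in WT (adjusted p = 0.0319). Syn2 differed by 0.31 ± 0.11 in KO (adjusted p = 0.0315) and 0.28 ± 0.11 in WT (adjusted p = 0.0447). On these brightest probe sets both genes overlapped between 48 h and basal in each genotype, and their calls were lost under quantile normalization. Of 24 alternatives, the Syn1 call was kept in 12 in KO and 12 in WT, and the Syn2 call in 14 and 11. A dimmer probe set of Syn2 averaged 0.49 ± 0.09 in KO and 0.50 ± 0.18 in WT at 48 h. At basal it averaged -0.04 ± 0.32 and -0.14 ± 0.15 (SD, n = 5), and its 48 h dishes did not overlap with basal in either genotype. Sncb (beta-synuclein), a soluble protein of the terminal, did not pass at 48 h in either genotype.

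Among the genes of membrane retrieval, Snap91 (AP180, which sets clathrin coat size) rose at 48 h by 0.32 ± 0.08 in KO (adjusted p = 0.00229) and 0.41 ± 0.08 in WT (adjusted p = 0.000151). Bin1 (amphiphysin 2) rose by 0.38 ± 0.08 in WT (adjusted p = 0.000598), with no overlap, and had a difference of 0.12 ± 0.08 in KO. Dnm1 (dynamin 1), the GTPase that pinches off the endocytic vesicle, fell in WT at 24 h. Its mean was 3.08 ± 0.26 in WT at 24 h, against 3.48 ± 0.12 in WT at basal (SD, n = 5), and it was back at 3.57 ± 0.14 at 48 h. The 24 h difference in WT was -0.40 ± 0.10 (adjusted p = 0.00798), and in KO it was -0.10 ± 0.10 (adjusted p = 0.579). The KO minus WT difference in this response was 0.29, with a 95% interval of -0.0038 to 0.59 (adjusted p = 0.831). Amph (amphiphysin) and Sh3gl2 (endophilin A1, which recruits synaptojanin) passed in no BDNF comparison.

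Homer1 and Homer2 are scaffolds of the postsynaptic side that link metabotropic glutamate receptors to calcium stores, and are not vesicle proteins. Homer2 gave the list's clearest difference between the genotypes in a response. In KO dishes it measured 2.28, 2.48, 2.41, 2.40 and 2.66 at basal, 2.48, 2.63, 2.50, 2.44 and 2.46 at 24 h, and 2.78, 2.98, 3.02, 3.03 and 2.82 at 48 h. Dishes of WT cultures gave 2.84, 2.71, 2.60, 2.70 and 2.73 at basal, 3.40, 3.25, 3.46, 3.15 and 3.29 at 24 h, and 3.11, 3.10, 3.30, 3.23 and 3.07 at 48 h. In WT all BDNF dishes lay above basal at 24 h already, whereas KO dishes at 24 h lay within the KO basal range and stepped up at 48 h. The 24 h difference was 0.05 ± 0.07 in KO (adjusted p = 0.698) and 0.59 ± 0.07 in WT (adjusted p = 4.38e-07). The KO minus WT difference in the 24 h response was -0.54 ± 0.10, with a 95% interval of -0.75 to -0.33 (adjusted p = 0.0162). Homer2 was the single member past the threshold there, and 0.0672% of all tested genes were lower in this comparison. Without WT basal replicate 3 it was -0.51 with an adjusted p of 0.0529, and with the signals as deposited -0.47 with an adjusted p of 0.999. At 48 h the responses were 0.48 ± 0.07 in KO and 0.45 ± 0.07 in WT, with a difference between them of 0.03 ± 0.10.

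Homer1 lay under the filter with all 3 of its probe sets and was not tested. One of them, at the floor in 4 KO and 3 WT basal dishes, averaged -1.85 ± 0.30 in KO and -1.49 ± 0.32 in WT at 48 h, against -3.25 ± 0.16 and -3.13 ± 0.29 at basal (SD, n = 5). The KO and WT dishes at 48 h lay between -2.28 and -1.12, above the highest basal dish at -2.66. The brightest Homer1 probe set averaged -1.52 in KO and -0.97 in WT at 48 h, against -1.94 and -1.91 at basal, with overlapping dishes.

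Between the genotypes, every member that passed was lower in KO. At basal 10 of 29 were lower in KO than in WT, where 18.7% of all tested genes were. At 24 h 7 were lower, where 17.8% were, and at 48 h 11 were lower, where 14.4% were. None was higher in limma at any time, and 16, 13 and 14 members had an unadjusted p under 0.05 in either direction at basal, 24 h and 48 h. The shares of all tested genes at that unadjusted threshold are not given here. The median KO minus WT difference over the members was -0.19, -0.17 and -0.20 at the 3 times, beside -0.09, -0.09 and -0.07 over all tested genes. Of the members, 15 were lower at 1 time or more, 8 of them at 1 time, and 6 at all 3: Cplx1, Cplx2, Homer2, Scamp5, Sncb and Syt11. The matching shares of all tested genes are not given here, so these joint counts describe the members alone.

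**Figure D3:**
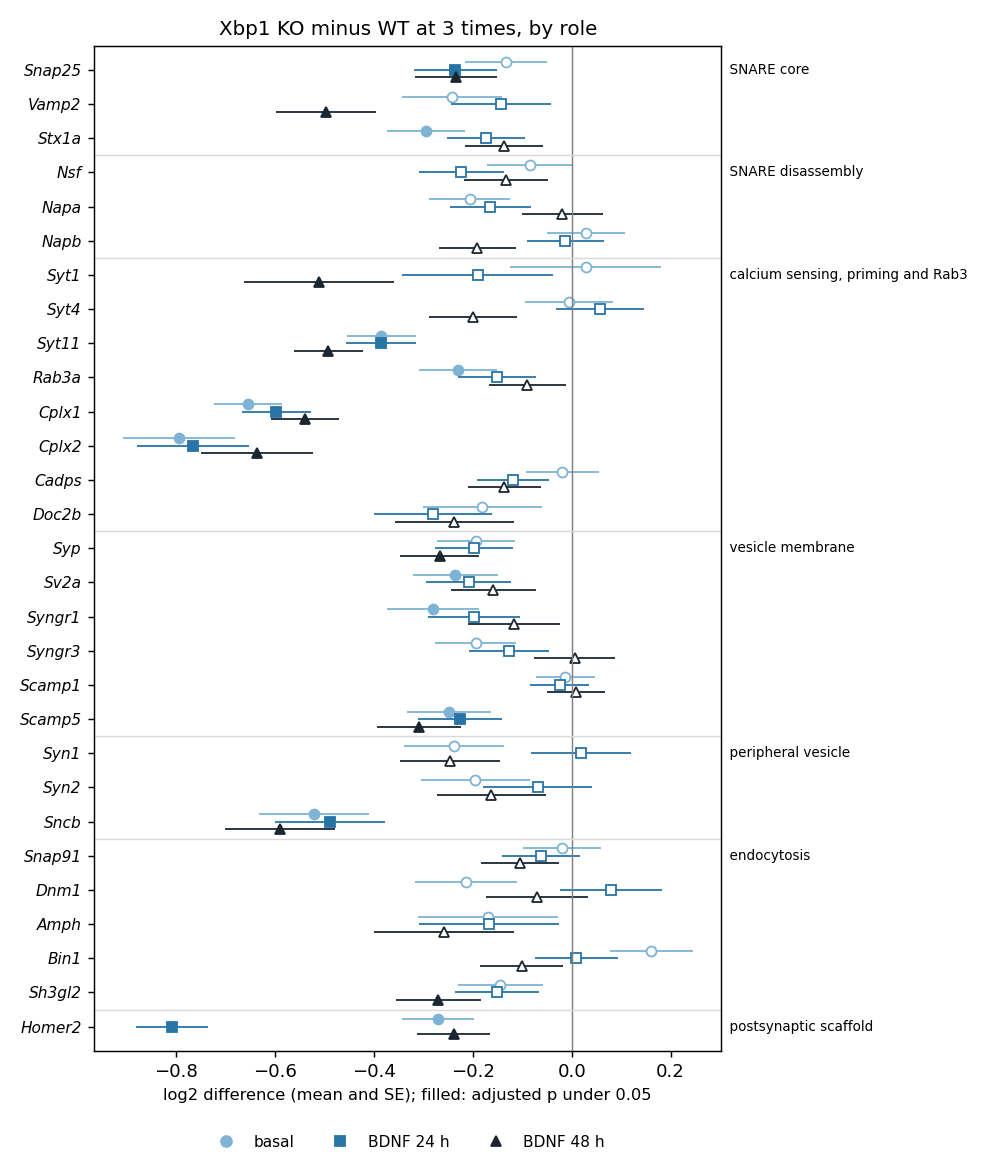
KO minus WT log2 difference of each tested member at basal (light circles), 24 h (blue squares) and 48 h of BDNF (dark triangles), as mean with SE and ordered by role (n = 5 dishes per group). Filled symbols passed an adjusted p of 0.05, and all of these lie left of 0. Homer2 at 24 h (-0.81) and Cplx2 at basal (-0.79) lie farthest out.

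Both complexins stood clearly lower in KO at every time. Cplx2, the complexin common in excitatory neurons, measured 2.34, 1.81, 2.13, 1.68 and 2.19 in KO basal dishes, against 2.99, 2.62, 2.96, 2.62 and 2.92 in WT basal dishes. At 24 h it measured 2.12, 2.00, 2.38, 2.42 and 2.52 in KO, against 2.93, 3.20, 3.04, 3.08 and 3.02 in WT. At 48 h it measured 2.33, 2.22, 2.00, 2.34 and 2.30 in KO, against 2.72, 2.72, 2.77, 3.15 and 3.00 in WT. No KO dish reached a WT dish of the same time. In the order of time the differences were -0.79 ± 0.11, -0.77 ± 0.11 and -0.64 ± 0.11 (adjusted p = 1.34e-06, 2.88e-06 and 4.97e-05). At 48 h the call was lost with replicates 1 and 2 alone, where the difference was -0.45 (adjusted p = 0.1).

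Cplx1 measured 4.18, 3.98, 4.32, 4.10 and 4.30 in KO basal dishes, against 4.88, 4.91, 4.92, 4.65 and 4.81 in WT basal dishes. At 24 h it measured 4.07, 4.10, 4.18, 4.21 and 4.28 in KO, against 4.89, 4.56, 4.76, 4.80 and 4.81 in WT. At 48 h it measured 4.43, 4.36, 4.44, 4.53 and 4.51 in KO, against 4.82, 5.01, 4.98, 5.11 and 5.04 in WT. Here too the genotypes did not overlap at any time. The differences were -0.65 ± 0.07, -0.60 ± 0.07 and -0.54 ± 0.07, so that the level in WT was 1.57-fold, 1.51-fold and 1.45-fold that in KO. They passed in every alternative that was run. The second probe set of Cplx1 gave -0.67 ± 0.08 at basal and -0.56 ± 0.08 at 48 h, and the dimmest, at -0.24 ± 0.18 and -0.13 ± 0.18, did not pass.

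Sncb measured 1.18, 0.98, 0.97, 1.23 and 0.93 in KO basal dishes, against 1.63, 1.65, 1.63, 1.27 and 1.71 in WT basal dishes. The 24 h dishes gave 0.96, 0.71, 1.02, 1.30 and 1.22 in KO, against 1.66, 1.17, 1.72, 1.58 and 1.53 in WT. The 48 h dishes gave 1.40, 1.22, 1.18, 1.18 and 1.25 in KO, against 1.56, 2.07, 1.69, 2.01 and 1.84 in WT. The genotypes overlapped at 24 h through a single WT dish at 1.17, and not at the other times. The differences were -0.52 ± 0.11, -0.49 ± 0.11 and -0.59 ± 0.11 (adjusted p = 0.000548, 0.00123 and 0.000117).

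Syt11 measured 4.77, 4.54, 4.65, 4.73 and 4.72 in KO basal dishes, against 4.98, 5.16, 5.11, 5.01 and 5.09 in WT basal dishes. The 24 h dishes gave 4.48, 4.45, 4.65, 4.73 and 4.75 in KO, against 5.00, 5.00, 5.01, 4.94 and 5.04 in WT. The 48 h dishes gave 4.61, 4.74, 4.77, 4.45 and 4.47 in KO, against 5.00, 5.22, 4.94, 5.25 and 5.09 in WT. The groups were apart at each time. The differences were -0.39 ± 0.07 at basal and at 24 h and -0.49 ± 0.07 at 48 h. The other 2 probe sets of Syt11 were also lower in KO, by -0.46 ± 0.07 and -0.35 ± 0.10 at basal and -0.45 ± 0.07 and -0.31 ± 0.10 at 48 h.

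Scamp5, a neuronal secretory carrier membrane protein, measured 2.98, 2.94, 2.88, 2.80 and 2.77 in KO basal dishes, against 3.20, 3.23, 2.98, 2.99 and 3.21 in WT basal dishes. The 24 h dishes gave 3.01, 2.88, 2.91, 2.95 and 3.02 in KO, against 3.22, 2.94, 3.06, 3.38 and 3.30 in WT. The 48 h dishes gave 2.95, 2.76, 3.14, 3.16 and 3.11 in KO, against 3.12, 3.22, 3.46, 3.44 and 3.42 in WT. The groups touched at basal and overlapped at 24 h and 48 h. The differences, -0.25 ± 0.085, -0.23 ± 0.085 and -0.31 ± 0.085, were small beside those of the complexins, and the 24 h call (adjusted p = 0.0468) was kept in 6 of 22 alternatives.

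**Figure D4:**
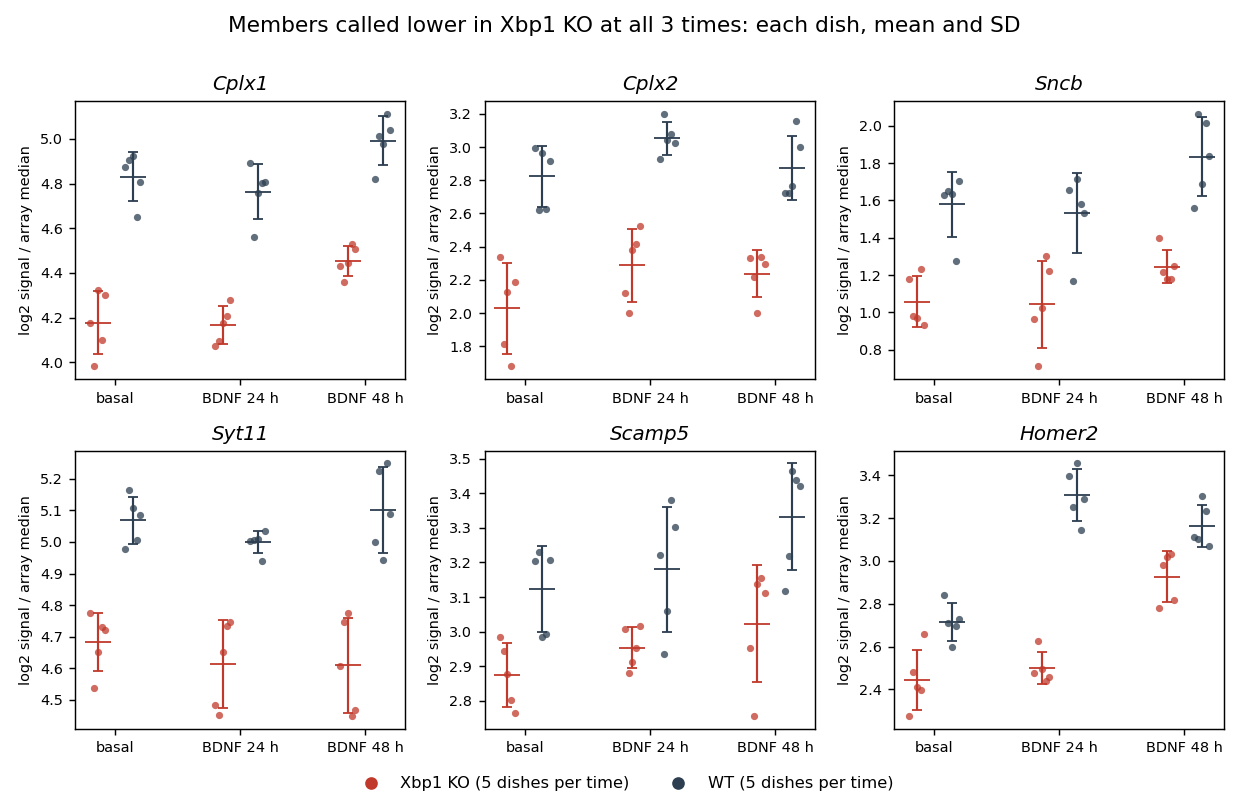
Log2 signal over the array median in every dish for the 6 members that were lower in KO at all 3 times, by time (red KO, dark WT, n = 5 dishes per group), with mean and SD as bars. Cplx1 and Cplx2 show a gap between the genotypes at each time, and Homer2 shows its widest gap at 24 h.

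The values of Homer2 given above differed by -0.27 ± 0.07 at basal, where the dishes overlapped, -0.81 ± 0.07 at 24 h and -0.24 ± 0.07 at 48 h. At 24 h the highest KO dish was at 2.63 and the lowest WT dish at 3.15. At 48 h Vamp2 was lower in KO by -0.50 ± 0.10 (adjusted p = 0.000302), with no overlap, and Syt1 by -0.51 ± 0.15 (adjusted p = 0.0124), with an overlap between 0.50 and 0.54. Snap25 differed by -0.24 ± 0.08 (adjusted p = 0.0349) at 24 h, by -0.23 ± 0.08 (adjusted p = 0.0378) at 48 h, and Syp by -0.27 ± 0.08 at 48 h (adjusted p = 0.0124). The Snap25 calls were kept in 12 of 22 alternatives at 24 h and in 12 of 24 at 48 h. Sh3gl2 was lower in KO at 48 h, by -0.27 ± 0.09 (adjusted p = 0.0195). Rab3a (-0.23 ± 0.08), Stx1a (-0.29 ± 0.08), Sv2a (-0.24 ± 0.09) and Syngr1 (-0.28 ± 0.09) were lower at basal and did not pass at later times. In limma's test of whether the KO minus WT difference at 24 h or 48 h departs from that at basal, which is the test of the difference in response, none of these members but Homer2 passed, so a call at 1 time and none at another does not show that BDNF and basal dishes differ in it. Amph, Doc2b, Napa and Scamp1 passed in none of the 11 comparisons.

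Markers of other cells also differed between the genotypes. The 20 tested neuronal genes outside the synapse had 6 members lower and 0 higher in KO at basal, 7 lower and 1 higher at 24 h, and 8 lower and 0 higher at 48 h. The shares lower were 30%, 35% and 40% at basal, 24 h and 48 h, beside 18.7%, 17.8% and 14.4% of all tested genes, and the medians were -0.13, -0.13 and -0.09, beside -0.09, -0.09 and -0.07. Their summed signal lay between 745 and 817 times the array median in KO basal dishes, against 798 to 892 in WT basal dishes. Among the vascular and meningeal genes (11 listed, 6 tested), all 6 tested were higher in KO at basal and at 48 h, with medians of 1.06 and 1.22. Of all tested genes, 9.2% were higher in KO at basal and 9.68% at 48 h. Their summed signal was 169 to 206 in KO basal dishes, against 84.3 to 103 in WT basal dishes, and 154 to 175 in KO at 48 h, against 71.5 to 84.9 in WT. The 6 were the collagen and mural genes Col1a1, Col1a2, Col3a1, Dcn, Lum and Pdgfrb, while the endothelial genes Pecam1 and Cdh5 were at the floor in 28 and 17 of 30 arrays. Of 14 tested progenitor genes, 4 were higher and 6 lower in KO at basal, and 5 higher and 3 lower at 48 h. Of the 5 tested microglial genes, 1 was higher in KO at basal, and 3 were higher and 1 lower at 48 h. The 7 measured astrocyte genes summed to 51.5 to 60.2 in KO basal dishes, against 41.8 to 51.1 in WT basal dishes, and to 46.1 to 53.1 in KO at 48 h, against 33.2 to 45 in WT, although of the 3 tested 1 was higher and 2 lower at both times. The part of these markers in the lower level of the vesicle genes was not tested.

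Beside the 48 h rises, the neuronal genes outside the synapse had a median change of 0.0035 in KO and -0.019 in WT. In KO 4 rose (Nefl, Nefm, Eno2 and Thy1) and 3 fell (Dcx, Ina and Ncam1), and in WT 5 rose and 3 fell. Their summed signal was 757 to 809 in KO and 741 to 888 in WT at 48 h, against 745 to 817 and 798 to 892 at basal. Over all tested genes, 19.4% rose and 9.47% fell in KO at 48 h, and 20.5% rose and 15.7% fell in WT. Of 17 tested cell cycle genes, 1 rose and 2 fell in KO at 48 h (5.88% and 11.8%), and 0 rose and 10 fell in WT (58.8%). Of 14 tested progenitor genes, 4 fell in KO and 8 in WT, and 3 of 3 tested erythroid genes fell in both. Of the 3 tested astrocyte genes, 1 rose and 1 fell in KO, and 1 rose and 2 fell in WT. Of the 3 tested oligodendrocyte genes 1 rose in each genotype, and of the 5 tested microglial genes 1 rose in KO, while 1 rose and 2 fell in WT. The part of these genes in the rises was not tested. With the Gapdh ratio as a covariate, 9 members were higher at 48 h than at basal in KO and 13 in WT, beside 7.67% and 9.09% of all tested genes. The median difference over the members was then 0.26 in KO and 0.28 in WT.

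The rest of the vesicle cycle was followed in a list of 90 other genes, of which 71 were measured and 50 tested. At 48 h, 14 were higher and 2 lower in KO, and 14 were higher and 5 lower in WT. The share higher was 28% in each genotype, beside 19.4% of all tested genes in KO and 20.5% in WT, and the medians were 0.09 and 0.05, beside 0.045 and 0.023 over all tested genes. The largest changes were those of Rab3c and Rab3b, GTPases of secretory vesicles related to Rab3a. Rab3c rose by 0.96 ± 0.11 in KO and 1.35 ± 0.11 in WT, and Rab3b by 0.96 ± 0.14 and 0.85 ± 0.14. Cltb, a clathrin light chain, rose by 0.85 ± 0.13 in KO and 0.75 ± 0.13 in WT. Pclo (piccolo), a scaffold of the active zone, rose by 0.60 ± 0.11 and 0.63 ± 0.11. Vamp8, a SNARE of endosomes and secretory granules, fell in WT by 0.71 ± 0.15 (adjusted p = 0.000366) and differed by -0.23 ± 0.15 in KO. Between the genotypes, 5 of these genes were higher and 11 lower in KO at basal (10% and 22%, beside 9.2% and 18.7% of all tested genes), and 5 were higher and 10 lower at 48 h (10% and 20%, beside 9.68% and 14.4%). Of the 7 tested genes of the postsynaptic density, 1 was higher at 48 h in KO and 3 in WT (14.3% and 42.9%, beside 19.4% and 20.5% of all tested genes). Lower in KO than in WT were 2 at basal, 1 at 24 h and 4 at 48 h, and 0 were higher. These are 28.6%, 14.3% and 57.1%, beside 18.7%, 17.8% and 14.4% of all tested genes. Their median KO minus WT difference at 48 h was -0.34.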

How the data were processed

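RNA from 30 dishes was hybridised to Affymetrix Mouse Genome 430A 2.0 arrays, and the authors deposited 1 linear signal intensity per probe set, made with MAS5 per the submitters' processing notes, whose version is not given in the sources used here. Each of the 22690 deposited intensities was divided by its array's median, raised to a floor of 0.1 where lower, and taken to log2. Of the probe sets, 20393 name 1 gene in the platform annotation, 691 several and 1606 none. Each gene was read from its brightest probe set (12394 genes), and the upper 60% by mean signal were tested. A model of 6 group means was fitted with limma 3.58.1 (R 4.3.3; lmFit and eBayes with an intensity trend), with 11 contrasts and Benjamini-Hochberg adjustment over all 7436 genes at 0.05. The steps were tested on simulated data. Replicate numbers were not taken to pair the dishes, since in none of 9 comparisons did every same-numbered pair correlate above 0.1. The lowest correlations lay between -0.175 and -0.006 and the highest between 0.086 and 0.281. The mean was up to 0.136 (KO and WT at 48 h), against -0.033 for other pairs. A rule that asks this of every pair is strict and cannot exclude that some dishes were paired. Alternatives were other normalizations, filters and thresholds, all probe sets, subsets of arrays, a replicate block and a Gapdh covariate.

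All 34 members are named. Values of every dish are given for the 4 largest 48 h rises called in each genotype and the 8 members with the largest genotype difference called at any time, and the other vesicle genes named are those with the 5 largest changes called. The members and gene lists were chosen with earlier results of these data known. Array number limits the precision.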

Additional observations from a re-analysis of the deposited data

Results flagged for a closer look

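In 9 of 186 groups of 5 dishes, over 31 measured members, a single dish lay apart from the other 4 by more than 0.71 of the group's range, a gap that chance alone gives in about 1 group in 20. Bin1 was at 1.49 in WT 48 h replicate 1, against 1.78 to 1.88 in the others, and Snap91 was at 5.58 in WT 48 h replicate 5, against 5.33 to 5.36. In WT basal replicate 4, Sncb was at 1.27, against 1.63 to 1.71, and Stx1a at 3.76, against 4.01 to 4.09. Syngr1 was at 2.35 in KO basal replicate 1, against 2.12 to 2.16, and at 2.37 in WT 24 h replicate 2, against 2.53 to 2.58. Vamp2 was also low in WT 24 h replicate 2, at 2.61, against 3.25 to 3.31. Syt4 was at 3.98 in KO 24 h replicate 1, against 4.08 to 4.11, and Vamp1 was at -2.01 in KO 24 h replicate 5, against -1.10 to -0.94. The 24 h response of Homer2 differed between the genotypes, with a KO minus WT difference of -0.54 on the log2 scale.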

How the results depend on the processing

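Of 87 calls of members, 28 were kept in every alternative run and 59 were lost in 1 or more. Counts of members are given for settings that moved them by over 1.5 times. With signals as deposited, the median of all genes at 48 h was 0.29 in KO and 0.34 in WT, and the members higher were 24 in KO and 25 in WT at 48 h against basal, 14 and 26 at 48 h against 24 h, and 2 in WT at 24 h, while those lower in KO were 3, 3 and 6 at basal, 24 h and 48 h, and the Homer2 response difference gave 0. Of all tested genes as deposited, 49.6% in KO and 57.7% in WT were higher against basal, and 26.8% and 61.4% against 24 h. In WT at 24 h 2.45% were higher. Lower in KO were 3.01%, 1.96% and 4.1% at basal, 24 h and 48 h. With 48 h replicates 1 and 2 alone, 7 in KO and 7 in WT were higher against basal, 4 and 2 against 24 h, and 4 were lower in KO at 48 h. The shares of all tested genes, in the same order, were 9.2% and 5.82%, 1.49% and 0.444%, and 5.41%. Against 24 h, the Gapdh covariate gave 0 in KO and 5 in WT, a threshold of 0.01 gave 4 and 5, and the mean of probe sets gave 5 in KO. The shares of all tested genes higher there were 0.524% and 1.68%, 2.03% and 3.2%, and 5.43%. Under the threshold of 0.01, 6 were lower in KO at basal and 6 at 48 h, beside 10.3% and 7.54% of all tested genes. The Homer2 response gave 0 under that threshold. Quantile normalization and the 75th percentile each gave 6 lower and 1 higher (Bin1, 0.21) in KO at basal and 1 lower in WT at 48 h (Napa, -0.23 and -0.20), and quantile normalization 1 lower in KO at 48 h (Syt11, -0.17) and 1 lower in WT from 24 h (Homer2, -0.21). Of all tested genes in these 2 settings, 13.3% and 13% were lower and 11.7% and 11.2% higher in KO at basal. At 48 h 21.1% and 23.3% were lower in WT. Quantile normalization gave 15.9% lower in KO at 48 h and 8.31% in WT from 24 h. The share of all called genes that were higher at 48 h was 67.2% in KO and 56.6% in WT, 47.6% and 42.7% after quantile normalization, 41.5% and 39.9% by the 75th percentile, and 98.8% and 97.9% as deposited. At basal, 33% of genes called between genotypes were higher in KO, and 46.7%, 46.3% and 73.4% under those settings. The direction turned for Syt11 at 48 h in KO (0.21) and for Syp from 24 h to 48 h (-0.0951 in KO, -0.1446 in WT) with the mean of probe sets, and for Rab3a in WT as deposited (0.28 against basal and against 24 h). Leaving out 1 dish gave 2 to 3 members higher at 24 h in KO and 3 to 5 in WT (1 to 1 lower), 10 to 16 and 12 to 19 at 48 h, and 6 to 11 and 8 to 15 from 24 h, with 6 without KO 48 h replicate 5 and 8 without WT 48 h replicate 5 or WT 24 h replicate 2. It gave 7 to 14, 5 to 10 and 9 to 14 lower in KO at the 3 times, and 0 to 1 for the Homer2 response, which was lost without WT basal replicate 3. The shares of all tested genes with 1 dish left out are not given here. With the replicate block, 13 members in KO and 17 in WT were higher at 48 h, 12, 8 and 12 were lower in KO at the 3 times, and the block moved no count by over 1.5 times. Of all tested genes, 21.2% and 22.1% were then higher at 48 h, and 20.8%, 19.9% and 15.9% lower in KO. The causes of these shifts were not tested.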
